A study of Mus musculus with 2 samples.

Results

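The genes of 3 families of conjugating enzymes, the glutathione S-transferases, the cytosolic sulfotransferases and the UDP-glycosyltransferases of families 2 and 3, were examined in regenerating mouse liver. Members were chosen by gene name alone, as every listed gene called Gst with a class letter and a number, Mgst with a number, Sult with a number, or Ugt2 or Ugt3. Of 34745 genes listed by the authors, 62 matched, and 7 pseudogenes were left out. The remaining 55 members comprised 21 soluble glutathione S-transferases (GST), 3 microsomal glutathione S-transferases (MGST), 19 sulfotransferases (SULT) and 12 UDP-glycosyltransferases (UGT2/3). RNA-seq was performed on liver of male mice, 8 to 10 weeks old, after 2/3 partial hepatectomy (PH), an operation after which the remnant liver grows back. The KO library was made from miR-182-5p knockout mice, which lack the microRNA gene on 1 allele, and the WT library from wild-type mice, both collected 3 days after PH. The labels give genotype, tissue and operation, and the day was taken from the study's text. Both groups had the operation, so no unoperated liver entered the comparison, and the strain and the number of mice in each library are not given in the sources used here. The comparison asks which conjugating enzymes differed in transcript level between livers with the reduced and the full dose of this microRNA during regeneration.

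These enzymes carry out much of phase II metabolism, in which a polar group is attached to a drug, hormone, bile acid or lipid breakdown product so that it can be exported into bile or blood. GST and MGST enzymes use glutathione, SULT enzymes use the activated sulfate donor PAPS, and most UGT2 enzymes use UDP-glucuronic acid. Hepatocytes make all 3 cofactors, and several of the enzymes differ in level between male and female mice.

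Each genotype was represented by 1 library, so a difference between the libraries had no replicate check and no test of the genotypes was possible. The counts summed to 13247497 (KO) and 13163348 (WT). Mitochondrially encoded genes (13 with counts) held 51.7% of KO and 31.0% of WT counts, and the members held 0.485% and 0.794%. Of the counts outside the mitochondrial genes, the members took 1.00% and 1.15%. Levels of a gene were compared after TMM scaling, which limits the weight of the most abundant genes, and the median log2 fold change (log2FC, KO over WT) of all genes that reached 10 counts in the 2 libraries together was then 0.00. Scaled by total counts, the same median was −0.60, and every log2FC below is lower by about that amount on that scale. A gene was called higher or lower at a 2-fold difference, with no test. Pairs of values give the KO library first unless marked. Intervals in parentheses are exact 95% Clopper-Pearson intervals of the counts, which cover counting error only, as PCR copies were not told apart. Transcript levels of different genes were compared per length, as fragments per length and depth (FPKM), which the authors scaled by total counts. The gene lengths behind the FPKM are not given. For some genes, *Mgst1* and *Gsta3* among them, the FPKM imply a length above that of the longest annotated transcript. Ranks and shares of different genes by FPKM depend on these lengths. In bulk liver, fewer cells of a type and less RNA per cell cannot be told apart. The level of *Mir182* itself was not analysed here, which leaves the genotype labels unchecked.

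Of the alpha class glutathione transferases 3 of 4, of the mu class 2 of 7, and of the family 1 sulfotransferases 2 of 5 were lower in the KO library, whereas *Sult2a8*, *Sult5a1* and *Ugt2b38* were higher. Of the 55 members, 15 had no count in either library, *Mgst2* had 0 KO and 5 WT counts, and 39 reached 10 counts. Of these 39, 3 were called higher, 7 lower and 29 neither. The shares called were 7.69% higher and 17.9% lower, beside 9.46% higher and 9.94% lower among all 13561 genes that reached 10 counts. Thus the share of higher members lay near that of all genes, and the share of lower members lay above it, a difference that was not tested. The lower calls were *Gsta1*, *Gsta2*, *Gsta4*, *Gstm2*, *Gstm3*, *Sult1a1* and *Sult1e1*. No counting interval of the 10 called members included 0. The median log2FC of the 39 members was −0.15.

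Most of the lower calls lay in the GST class. Of 19 GST genes, 5 (26.3%) were lower and none higher, beside 9.94% lower and 9.46% higher of all genes. A log2FC below 0 was found for 16 of the 19 and for 6778 of all 13561 genes, and the GST median was −0.28. The summed GST counts were 27013 (KO) and 55785 (WT), a log2FC of −0.45 (−0.47 to −0.43), which became −0.22 without *Gstm3*. Of 8 SULT genes, 2 were higher and 2 lower, with a median of 0.31. Their summed counts were 6285 and 8698, a log2FC of 0.12 (0.08 to 0.17) that turned to −0.48 with total counts. Without *Sult1a1* the SULT sum gave 1.32. Of 10 UGT2/3 genes, 1 was higher and none lower, with a median of 0.17. Their summed counts were 15705 and 20932, a log2FC of 0.18 (0.15 to 0.21) that turned to −0.42 with total counts. Both MGST genes lay within 2-fold.

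The calls depended on scaling and on how much spread between mice is assumed. Scaled by total counts, 2 members (5.13%) were higher and 12 (30.8%) lower, beside 4.6% and 26.6% of all genes, so both shares lay closer to the background. The share of the called members that were lower went from 70.0% to 85.7%. Among all genes that share went from 51.2% to 85.2%. With total counts *Ugt2b38* was no longer called, and *Gstm4*, *Gstt2*, *Gstt3*, *Mgst3* and *Sult1b1* were added to the lower calls. A two-sided exact binomial test of the counts, adjusted by the Benjamini-Hochberg method over all genes, kept all 10 members, beside 7.97% higher and 8.32% lower of all genes, but compares these libraries and not the genotypes. With edgeR's exact test and a biological coefficient of variation taken as 0.2, 2 members were higher and 6 lower, beside 3.6% and 3.27% of all genes, and *Ugt2b38* and *Gstm2* lost their call. At an assumed 0.4, *Sult5a1* and *Sult1e1* kept theirs, beside 0.435% higher and 0.428% lower of all genes.

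**Figure D1:**
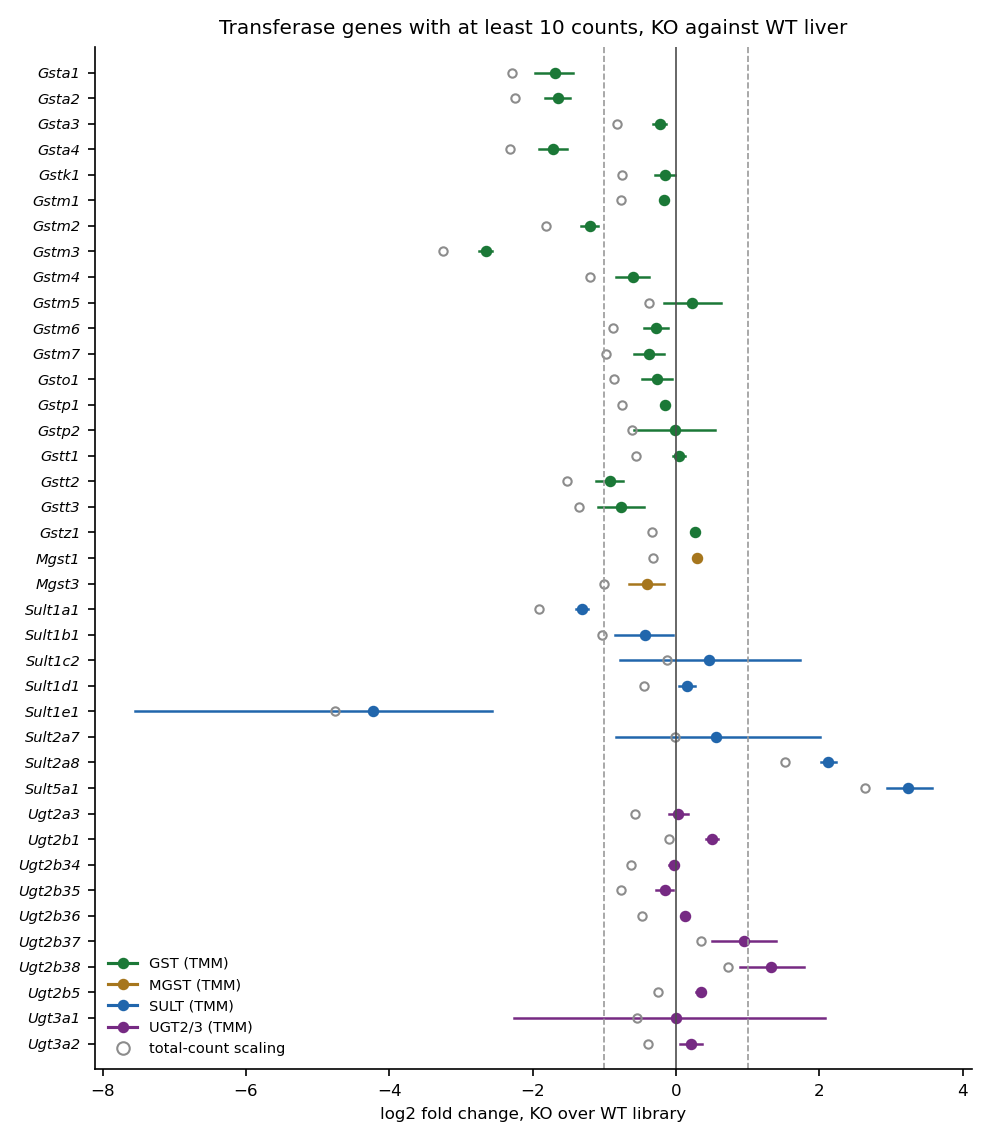
Log2FC (KO over WT library) of the 39 members with at least 10 counts, by class. Filled points are TMM-scaled values with exact 95% counting intervals, open circles the same values scaled by total counts, and dashed lines mark 2-fold. The lower calls lie among *Gsta*, *Gstm* and *Sult1* genes, with *Gstm3* at −2.65 and *Sult1e1* at −4.22, and the open circles lie to the left of the filled points, past 0 for many of the UGT2/3 genes.

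Alpha class GSTs are soluble enzymes that conjugate electrophiles and reduce lipid peroxides, and they were lower for 3 of 4 genes. *Gsta4*, whose enzyme is known for the lipid aldehyde 4-hydroxynonenal, had 257 KO and 1269 WT counts, or 20.3 and 101 FPKM. Its log2FC was −1.71 (−1.91 to −1.52). *Gsta2* had 326 and 1539 counts (16.6 and 79.1 FPKM) and a log2FC of −1.65 (−1.82 to −1.47). *Gsta1* had 138 and 674 counts (9.05 and 44.5 FPKM) and a log2FC of −1.69 (−1.97 to −1.43). The 3 genes were thus lower by nearly the same factor. They lie close together on chromosome 9, *Gsta4* at chr9:78191966-78209348, *Gsta1* at chr9:78230656-78242684 and *Gsta2* at chr9:78331018-78355788, in the authors' coordinates (GRCm38). *Gsta3*, the alpha class gene that conjugates aflatoxin epoxide in mice, lies apart on chromosome 1 at chr1:21240589-21265661. It had 1720 and 3034 counts (27.3 and 48.5 FPKM), a log2FC of −0.23 (−0.31 to −0.14). *Gsta3* therefore took 17.8% of the alpha class FPKM in WT liver but 37.3% in KO liver. The highest FPKM of the 4 genes was that of *Gsta3* in KO liver and of *Gsta4* in WT liver. In counts *Gsta3* led in both libraries, so the WT order rests on the lengths used for the FPKM.

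Ratios between 2 genes of the same libraries do not depend on the scaling. The count ratio of *Gsta4* to *Gsta3* was 0.149 (KO) and 0.418 (WT), a log2 difference of −1.49 (−1.70 to −1.27). The ratio of *Gsta2* to *Gsta3* was 0.190 and 0.507, a log2 difference of −1.42 (−1.62 to −1.23). For *Gsta1* over *Gsta2* the log2 difference was −0.05 (−0.38 to 0.27), and its interval included 0. *Gsta1* and *Gsta2* share sequence, and 89.6% and 63.3% of the 51-base words in their transcripts also occur in other genes. Of the *Gsta1* words, 44.0% occur in *Gsta2* and 82.7% in *Gm3776*, which is not among the listed genes. *Gm3776* also holds 37.7% of the *Gsta2* words, so reads could have been divided among these copies. Summed with the listed copy *Gm10639*, *Gsta1* and *Gsta2* had 474 and 2247 counts, a log2FC of −1.65 (−1.80 to −1.51). *Gm3776* could not be added to this sum. *Gsta4* shared no such word.

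The promoters of *Gsta1* and *Gsta2* are shown because both genes were lower by the same factor and their counts cannot be fully separated. Each runs from 250 bases before to 50 bases after the RefSeq start (GRCm38.p6), *Gsta1* at chr9:78230419-78230718 on the plus strand and *Gsta2* at chr9:78347096-78347395 on the minus strand. Capitals mark the 68 bases of each that differ or are unpaired in their alignment, which was 74.6% identical. *Gsta1* and *Gsta3* promoters were 51.2% identical.
Gsta1: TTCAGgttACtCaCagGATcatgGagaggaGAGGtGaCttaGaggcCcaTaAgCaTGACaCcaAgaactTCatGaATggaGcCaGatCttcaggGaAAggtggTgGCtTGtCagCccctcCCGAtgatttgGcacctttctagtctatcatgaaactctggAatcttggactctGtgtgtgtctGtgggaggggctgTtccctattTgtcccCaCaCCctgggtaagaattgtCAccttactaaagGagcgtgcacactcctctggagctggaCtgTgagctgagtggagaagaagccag
Gsta2: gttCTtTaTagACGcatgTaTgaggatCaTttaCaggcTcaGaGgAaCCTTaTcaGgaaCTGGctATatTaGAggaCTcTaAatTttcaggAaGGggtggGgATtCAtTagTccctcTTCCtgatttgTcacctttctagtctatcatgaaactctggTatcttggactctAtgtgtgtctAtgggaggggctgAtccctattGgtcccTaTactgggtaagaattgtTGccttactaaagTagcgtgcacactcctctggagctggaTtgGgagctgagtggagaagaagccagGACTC
Of the marked bases, 42 of *Gsta1* and 39 of *Gsta2* fell in the 100 bases farthest from the start, and 10 and 13 in the 100 bases around it.

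Mu class GSTs conjugate epoxides and other reactive metabolites, and their 7 genes lie in 1 cluster on chromosome 3. *Gstm3* had the largest difference of the GST genes, with 1084 KO and 10258 WT counts. Its FPKM were 62.4 and 594, and its log2FC was −2.65 (−2.74 to −2.56), or 6.27-fold lower in the KO library. By the authors' FPKM, *Gstm3* ranked 2 among all members for WT and 8 for KO, an order that rests on the lengths used. WT counts of *Mgst1* (18641), *Gstp1* (12626) and *Gstm1* (10325) were higher than those of *Gstm3*. The longest transcripts of these genes, at 1167, 821 and 1289 bases, are shorter than the 1311 bases of *Gstm3*. *Gstm2* had 690 and 2399 counts (19.6 and 68.5 FPKM), a log2FC of −1.20 (−1.33 to −1.08). Their neighbour *Gstm1* had 6136 and 10325 counts (161.5 and 273.5 FPKM), a log2FC of −0.16 (−0.20 to −0.11).

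The order along the cluster is *Gstm5*, *Gstm7*, *Gstm6*, *Gstm3*, *Gstm2*, *Gstm1* and *Gstm4*, and both lower genes, *Gstm3* at chr3:107963696-107969283 and *Gstm2* at chr3:107981702-107986453, sit side by side in its middle. On either side of them the log2FC was −0.28 for *Gstm6* and −0.16 for *Gstm1*. The outer genes *Gstm7* and *Gstm4* had 291 and 569, and 235 and 538 counts, with a log2FC of −0.37 and −0.60. *Gstm5* had 95 and 122 counts and a log2FC of 0.23 (−0.17 to 0.63), which turns negative with total counts. *Gstm3* made up 60.2% (WT) and 23.1% (KO) of the mu class FPKM, and *Gstm1* 27.7% and 59.8%. The longest transcripts of the 2 genes are 1311 and 1289 bases and their WT counts were nearly equal. The WT lead of *Gstm3* in FPKM thus came from the lengths used. The count ratio of *Gstm3* to *Gstm1* was 0.994 (WT) and 0.177 (KO), a scaling-free log2 difference of −2.49 (−2.59 to −2.39). *Gstm3* shares 28.4% and *Gstm1* 22.7% of their 51-base words with other genes, among them each other and *Gstm2-ps1*, an excluded pseudogene with 171 and 670 counts. Summed over *Gstm1*, *Gstm3*, *Gstm6* and *Gstm2-ps1*, the counts were 7826 and 22049, a log2FC of −0.90 (−0.94 to −0.86), so the total of these copies lay within 2-fold. *Gstm2* shares 9.07% of its words.

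The other GST classes lay within 2-fold. *Gstp1*, the pi class gene, had the highest FPKM of the members in both libraries, 750 and 1267, with 7518 KO and 12626 WT counts. Its log2FC was −0.16 (−0.20 to −0.11), the same as that of *Gstm1*, and the log2 difference between these 2 genes was 0.00 (−0.06 to 0.06). The FPKM rank of *Gstp1* rests on the lengths used. *Mgst1* had more counts, 15100 and 18641, and the longest transcripts are 821 bases for *Gstp1* and 1167 for *Mgst1*. With *Gstm3* lower, the share of *Gstp1* in the GST FPKM was 41.8% (WT) and 52.0% (KO). Its near copy *Gstp2* had 46 and 70 counts, and together they gave a log2FC of −0.15. *Gstp1* shares 62.1% and *Gstp2* 72.4% of their 51-base words with other genes, mostly each other.

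Theta class GSTs act on small halogenated compounds. *Gstt1* had 1848 KO and 2709 WT counts and a log2FC of 0.04, which turns negative with total counts. *Gstt2* had 316 and 905 counts and a log2FC of −0.92 (−1.12 to −0.74), just under the 2-fold limit, and it passed that limit when the mitochondrial genes were left out of the total. *Gstt3* had 110 and 281 counts and a log2FC of −0.76 (−1.09 to −0.44). Relative to *Gstt1*, the log2 difference of *Gstt2* was −0.97 (−1.17 to −0.76) whatever the scaling. *Gstt4* was at 0 in both libraries.

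*Gstz1* encodes maleylacetoacetate isomerase, an enzyme of tyrosine breakdown. It had 4794 KO and 6002 WT counts and a log2FC of 0.27 (0.21 to 0.32), which turns to −0.33 with total counts. *Gstk1*, the kappa class gene of peroxisomes and mitochondria, had 672 and 1123 counts and a log2FC of −0.15. *Gsto1*, the omega class gene, had 302 and 546 counts and a log2FC of −0.26, and *Gsto2* was at 0 in both libraries. *Gstz1* overlaps *Pomt2* (46 and 83 counts), *Gsto1* overlaps *Cfap43* (18 and 31) and *Gstm5* overlaps *4933431E20Rik* (25 and 33), each on the opposite strand, so their counts may include reads of these genes.

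Microsomal GSTs are membrane proteins that are not related in sequence to the soluble ones. *Mgst1*, the glutathione transferase of the endoplasmic reticulum and outer mitochondrial membrane, had the most counts of all members, 15100 (KO) and 18641 (WT). Its level was 235 and 292 FPKM, and its log2FC of 0.29 (0.26 to 0.32) turned to −0.31 with total counts. *Mgst3* had 210 and 420 counts and a log2FC of −0.41 (−0.65 to −0.17). Neither gene reached 2-fold after TMM scaling, and *Mgst1* did not reach it with total counts either.

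**Figure D2:**
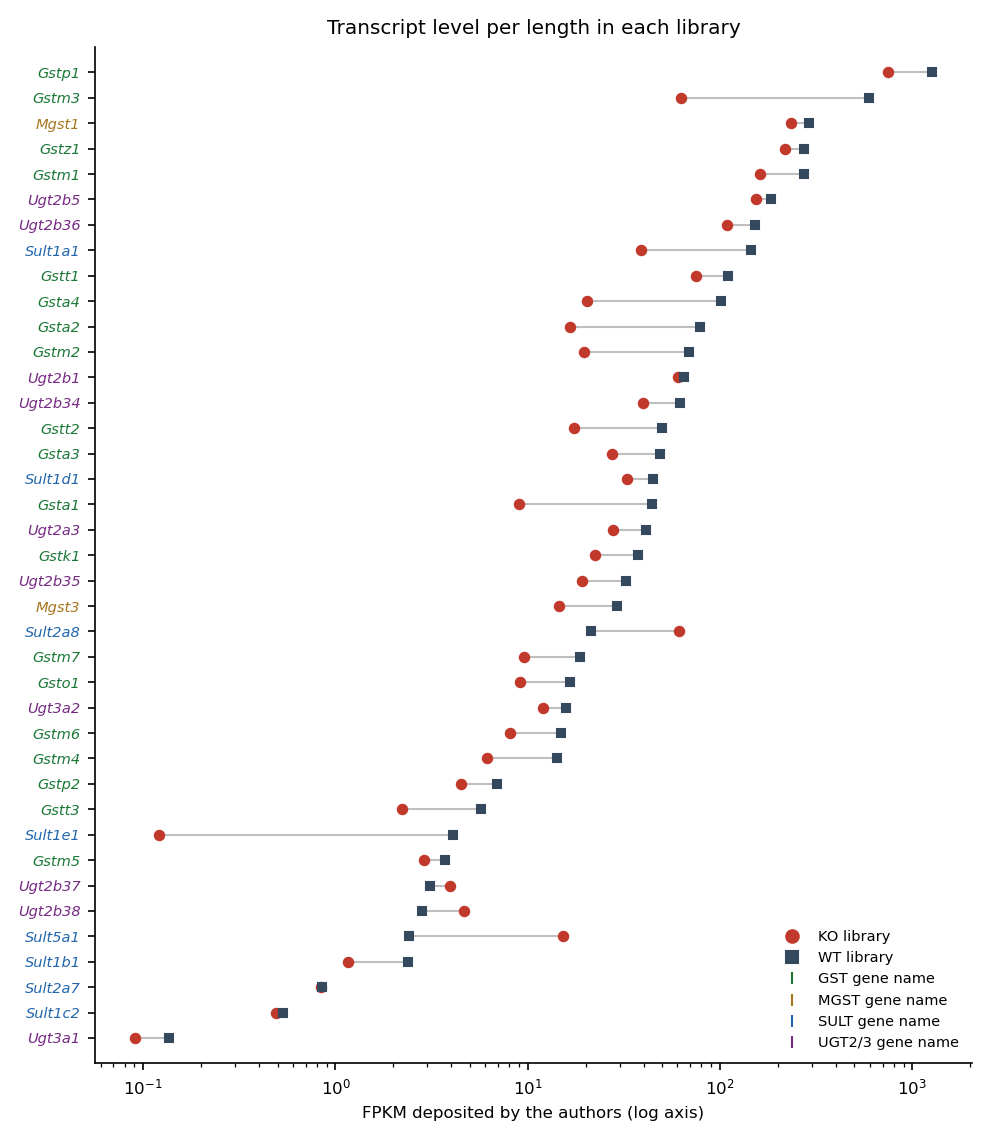
FPKM of the 39 members in the KO library (circles) and the WT library (squares), on a log axis and in the order of the WT library, with gene names coloured by class. FPKM were scaled by total counts, and most KO points lie left of their WT points. *Gstm3* drops furthest among the abundant genes, from 594 to 62.4 FPKM, and *Sult2a8* and *Sult5a1* lie to the right in the KO library, at 61.2 against 21.2 and at 15.2 against 2.42 FPKM.

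The sulfotransferases differed in both directions. *Sult1a1*, which sulfates phenols, was the most abundant SULT gene of the WT library. It had 1571 KO and 5855 WT counts (38.8 and 145 FPKM), a log2FC of −1.31 (−1.39 to −1.23). *Sult1a1*, at chr7:126672865-126676432, overlaps *Ccdc101* on the opposite strand, which had 146 and 212 counts, and whether counting used the strand is not given in the sources used here. *Sult1e1*, the estrogen sulfotransferase, had 2 KO and 67 WT counts (0.122 and 4.10 FPKM). With so few KO counts its log2FC was −4.22 with a wide interval (−7.55 to −2.56). *Sult1d1*, a neighbour of *Sult1e1* on chromosome 5, had 1116 and 1506 counts (32.8 and 44.5 FPKM) and a log2FC of 0.16 (0.05 to 0.27), which turned negative with total counts. The count ratio of *Sult1a1* to *Sult1d1* was 1.41 (KO) and 3.89 (WT), a scaling-free log2 difference of −1.47 (−1.60 to −1.33). *Sult1b1*, which sulfates thyroid hormones, had 77 and 157 counts and a log2FC of −0.43. *Sult1c2* had 12 and 13 counts, and *Sult1c1* was at 0 in both libraries.

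*Sult2a8*, a liver enzyme that sulfates bile acids in mice, was higher. It had 2877 KO and 992 WT counts (61.2 and 21.2 FPKM), a log2FC of 2.13 (2.02 to 2.23), or 4.37-fold, and 1.53 with total counts. *Sult5a1*, a sulfotransferase whose substrate is not well known, had 620 and 98 counts (15.2 and 2.42 FPKM), a log2FC of 3.25 (2.94 to 3.58), or 9.49-fold, and 2.65 with total counts. Both genes had more reads in the KO library even before scaling, as did *Ugt2b37* and *Ugt2b38*, whereas 34 of the 39 members had fewer. Few genes of any kind had more, as 4 of the 39 members and 2479 of all 13561 genes had a log2FC above 0 with total counts. Neither *Sult2a8* nor *Sult5a1* is a near copy of a listed gene, as *Sult2a8* shared none and *Sult5a1* shared 1.23% of its 51-base words. They lie on different chromosomes, *Sult2a8* at chr7:14410686-14446769 and *Sult5a1* at chr8:123142847-123158315.

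The order of the SULT genes therefore differed between the libraries. *Sult1a1* made up 65.7% (WT) and 25.7% (KO) of the SULT FPKM. *Sult2a8* made up 9.59% and 40.6% and was the most abundant SULT gene of the KO library, and *Sult5a1* made up 1.09% and 10.1%. The count ratio of *Sult2a8* to *Sult1a1* was 0.169 (WT) and 1.83 (KO), a log2 difference of 3.43 (3.30 to 3.57) that no scaling changes. *Sult1d1* kept a like share, 20.1% (WT) and 21.8% (KO).

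The rest of the SULT genes had no counts or few. *Sult2a1* to *Sult2a6*, *Sult2b1*, *Sult3a1*, *Sult4a1* and *Sult6b1* had 0 counts in both libraries, and a count of 0 allows up to 3 counts in libraries of this depth. *Sult2a7* had 10 counts in each. *Sult2a1* to *Sult2a7* and *Sult3a1* are known as higher in female than in male mouse liver, and the livers here were male. Of these 8 genes, 7 were at 0 in both libraries.

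The UGT2/3 genes, which mostly glucuronidate steroids, bile acids and drugs, lay within 2-fold for 9 of 10 genes. *Ugt2b5*, the gene with the highest FPKM, had 3799 KO and 4497 WT counts (154 and 184 FPKM), a log2FC of 0.35 (0.29 to 0.41). *Ugt2b36* had more counts, 4080 and 5635 (109 and 152 FPKM), and a log2FC of 0.13. The longest transcripts of these 2 genes are 1858 and 1888 bases, so their order by FPKM rests on the lengths used. *Ugt2b34* had 3304 and 5084 counts and a log2FC of −0.03. *Ugt2b1* and *Ugt2b35* had 2062 and 2190, and 848 and 1426 counts, with a log2FC of 0.51 and −0.16. *Ugt2a3* and *Ugt3a2* had 779 and 1148, and 613 and 799 counts, with a log2FC of 0.03 and 0.21, and *Ugt3a1* had 4 and 6 counts. *Ugt2a1* and *Ugt2a2* were at 0 in both libraries. All positive values named here turn negative with total counts, so no direction can be given for the genes that had them. *Ugt2b34* and *Ugt2b35* were below 0 on both scales, at −0.63 and −0.76 with total counts. The TMM-scaled interval of *Ugt2b34* included 0.

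A pair of Ugt2b genes with few counts lay highest. *Ugt2b38* had 117 KO and 70 WT counts (4.67 and 2.81 FPKM), a log2FC of 1.33 (0.89 to 1.78), and 0.73 with total counts. *Ugt2b37* had 99 and 77 counts and a log2FC of 0.95 (0.51 to 1.40), just under 2-fold. Relative to *Ugt2b5* the scaling-free log2 difference was 0.98 (0.54 to 1.44) for *Ugt2b38* and 0.61 (0.16 to 1.06) for *Ugt2b37*, and between these 2 genes it was 0.38 (−0.26 to 1.02). *Ugt2b38* shares 36.8%, *Ugt2b5* 41.2% and *Ugt2b37* 17.7% of its 51-base words with other genes. Summed, the 3 genes had 4015 and 4644 counts and a log2FC of 0.38, almost all of it from *Ugt2b5*.

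The promoters of *Ugt2b5* and *Ugt2b38* are shown to let the reader see how alike this abundant and this scarce gene are around the start. They lie on the minus strand at chr5:87140291-87140590 and chr5:87424154-87424453 (RefSeq, GRCm38.p6), and capitals again mark bases that differ or are unpaired, 39 in each. The alignment was 84.2% identical, and that of *Ugt2b37* and *Ugt2b38* was 86.9% identical.
Ugt2b5: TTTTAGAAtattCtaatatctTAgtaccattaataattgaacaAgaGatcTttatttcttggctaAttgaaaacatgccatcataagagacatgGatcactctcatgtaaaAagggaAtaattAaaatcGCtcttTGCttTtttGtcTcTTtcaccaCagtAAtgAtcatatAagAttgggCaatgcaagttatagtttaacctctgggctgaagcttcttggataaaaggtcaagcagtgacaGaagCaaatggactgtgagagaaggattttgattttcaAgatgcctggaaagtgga
Ugt2b38: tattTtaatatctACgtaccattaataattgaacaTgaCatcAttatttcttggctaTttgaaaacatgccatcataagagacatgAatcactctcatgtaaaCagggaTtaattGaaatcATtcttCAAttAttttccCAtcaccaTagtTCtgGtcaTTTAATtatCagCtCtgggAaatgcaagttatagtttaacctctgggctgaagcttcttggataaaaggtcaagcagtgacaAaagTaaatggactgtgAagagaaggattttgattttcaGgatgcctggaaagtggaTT
In the last 100 bases, which hold the start, 3 bases of *Ugt2b5* and 6 of *Ugt2b38* were marked, and the levels of the 2 genes in the WT library were 184 and 2.81 FPKM.

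**Figure D3:**
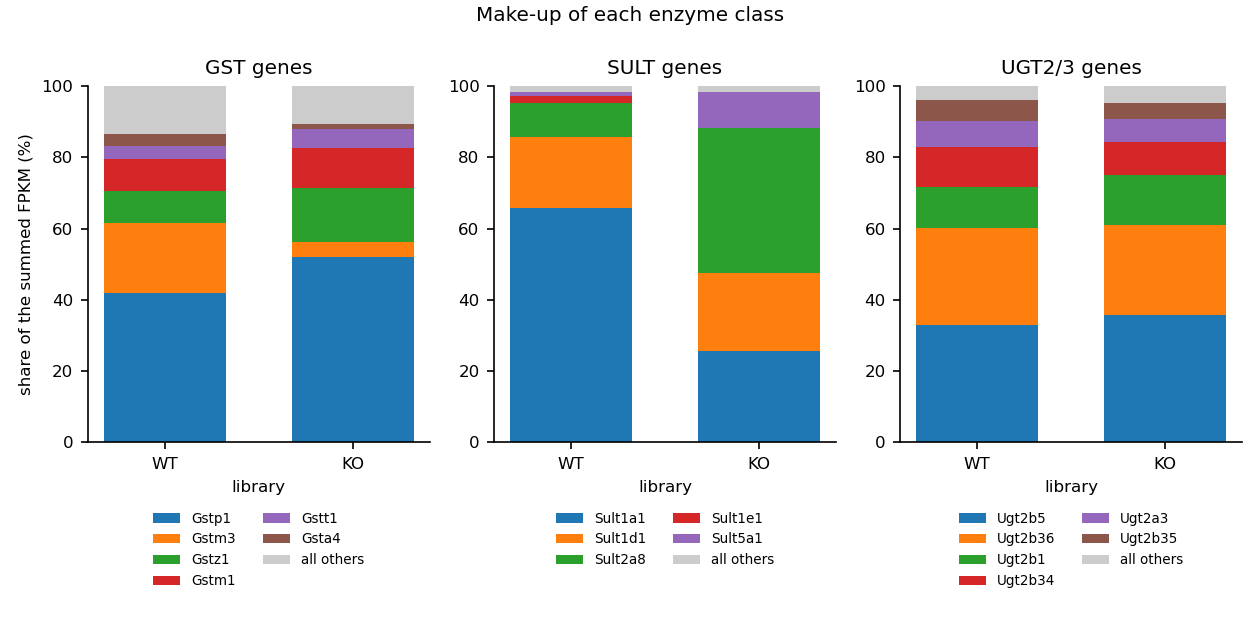
Share of each gene in the summed FPKM of its class (%), as stacked bars for the WT and the KO library, with the genes of the smaller shares joined in grey. *Gstm3* shrinks from 19.6% to 4.33% of the GST genes and *Sult1a1* from 65.7% to 25.7% of the SULT genes, where *Sult2a8* grows from 9.59% to 40.6%, while the UGT2/3 genes keep a like make-up.

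Promoters were found in RefSeq for 48 of the 55 members (60 promoters), and *Gsta4*, *Gstt2*, *Sult2a1*, *Sult2a2*, *Sult2a7*, *Sult4a1* and *Ugt3a2* had no entry. The antioxidant response element core TGACNNNGC, the site of NRF2, was found on either strand in promoters of *Gsta3*, *Gstm5*, *Gstm7* and *Mgst1* and in 12.4% of 32851 promoters. None of these 4 members was called. The letters TTCNNNGAA, bound by STAT5, were found for *Gsta1*, *Gstm6*, *Mgst1*, *Mgst2* and *Sult3a1* and in 8.30% of all promoters. The D-box letters TTATGTAA or TTACGTAA occurred in the promoter of *Ugt2b1* and in 1.06% of all, and the E-box CACGTG in no member and in 7.15% of all. The letters of the 4 motifs do not contain one another, and a match is a description of the letters in this window.

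MicroRNAs generally lower transcripts through pairing of the seed, bases 2 to 8, to the 3′ UTR. The study reports that the microRNA of the knockout instead raised a bile acid synthesis gene by acting on its promoter. Promoters of the members were not searched for such pairing, so that mode was not tested. Matches to miR-182-5p were sought in 3′ UTRs only. miR-182-5p is shown with the seed in capitals (RefSeq, GRCm38.p6, chr6:30165962-30165986, minus strand), followed by the members' sites, with the matching bases in capitals.
miR-182-5p: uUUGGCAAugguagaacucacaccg
Sult1d1: tgttgttaacaTTGCCAAAttatttagatt
Ugt2b35: tgacctggaggTTGCCAAggttcatttcc
Mgst2: ggactttcatgTTGCCAAgaaactgagga
The 7-base match TTGCCAA was found in the longest 3′ UTR of 2 of 39 members (5.13%), *Sult1d1* and *Ugt2b35*, and in 12.0% of 12503 genes with at least 10 counts and a 3′ UTR. *Mgst2*, which also holds it, had too few counts. The 8-base match TTGCCAAA was found in *Sult1d1*, 2.56% of members, and in 4.98% of all. The 3′ UTRs of the members were shorter, with a median of 480 bases against 1130. The log2FC of *Sult1d1* was 0.16 and that of *Ugt2b35* −0.16, and none of the 10 called members held either match.

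Genes of the same pathways outside the families were read against the shares of all genes called, 9.46% higher and 9.94% lower, and no difference from them was tested. Of 20 genes of glutathione synthesis and recycling, 1 was higher and 2 were lower, with a median log2FC of −0.25. *Gclc* and *Gclm*, the 2 subunits of the rate-limiting glutamate-cysteine ligase, had 1945 and 3482, and 589 and 1057 counts in the KO and WT library, and both had a log2FC of −0.25. *Gss*, the glutathione synthetase, and *Gsr*, the glutathione reductase, had 839 and 2032, and 230 and 626 counts, with a log2FC of −0.68 (−0.80 to −0.57) and −0.85 (−1.08 to −0.63). *Gpx1*, the glutathione peroxidase that removes hydrogen peroxide, was called lower, with 4985 and 16932 counts and a log2FC of −1.17 (−1.22 to −1.13). The other 2 calls, named after their values were seen, had few counts, 14 and 1 for *Slc7a11* and 7 and 29 for *Ggt5*. Of 11 other proteins related to GSTs by fold or name, none was called, and their median was −0.35.

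The genes of SULT and UGT cofactors and of conjugate handling lay within 2-fold with 1 exception. Of 13 genes of PAPS supply and sulfate ester handling, none was called, with a median log2FC of −0.11. *Papss2* and *Papss1*, the 2 PAPS synthases, had 1164 and 2324, and 110 and 157 counts in the KO and WT library, and a log2FC of −0.41 and 0.08, the latter negative with total counts. Of 13 genes of UDP-glucuronic acid supply and glucuronide handling, 1 was lower, and the median was −0.17. The lower gene was *Uxs1* with 15 and 55 counts, named after its values were seen. *Ugdh*, which makes UDP-glucuronic acid, had 1280 and 2887 counts and a log2FC of −0.58, and *Ugp2*, which makes its precursor, had 692 and 1363 counts and a log2FC of −0.39.

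Of 16 transporters that export conjugates or take up organic anions, 3 were higher and 4 lower, with a median log2FC of 0.04 that turned to −0.57 with total counts. *Abcc3*, which exports glucuronides into blood, had 445 KO and 1391 WT counts, a log2FC of −1.05 (−1.21 to −0.90). The anion uptake carrier *Slco1a4* had 228 and 1025 counts, a log2FC of −1.57. A pair of uptake carriers was higher, *Slc22a7* with 1048 and 463 counts and a log2FC of 1.77, and *Slco1a1* with 609 and 387 counts and a log2FC of 1.25, the latter within 2-fold at 0.64 with total counts. The remaining calls, named after their values were seen, were *Abcb1b*, *Abcc4* and *Abcb1a*, each with at most 32 counts in a library.

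Of 19 other phase II enzymes, 1 was higher and 3 were lower, with a median log2FC of −0.17. *Gnmt*, the glycine methyltransferase, was lower, with 1044 KO and 3216 WT counts and a log2FC of −1.03. *Nqo1*, a quinone reductase and known target of NRF2, had 30 and 156 counts and a log2FC of −1.77 (−2.40 to −1.22). The higher gene, *Nat1*, had 15 and 11 counts and was named after its values were seen.

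Of 21 regulators of such genes, 1 was higher and 2 were lower, with a median log2FC of 0.05 that turned to −0.55 with total counts. *Nfe2l2*, which encodes NRF2, and its inhibitor *Keap1* had a log2FC of −0.18 and −0.07. *Nr1i2* and *Nr1i3*, the xenobiotic receptors PXR and CAR, had −0.20 and −0.22. *Nr1h4*, the bile acid receptor FXR, had 1998 KO and 911 WT counts and a log2FC of 1.72 (1.61 to 1.84). *Arnt*, the partner of the dioxin receptor, had 26 and 200 counts and a log2FC of −2.33, and *Bcl6*, a repressor that is higher in male liver, had 219 and 705 counts and a log2FC of −1.09. Of 8 genes known as higher in male liver and outside the families, 3 were higher and none lower, with a median log2FC of 0.79. With total counts 2 were higher and the median was 0.19, and the summed counts of the list gave −0.04 after TMM scaling. Besides *Slco1a1*, these were *Hsd3b5* and *Cyp7b1*. *Hsd3b5* had 420 and 103 counts and a log2FC of 2.61, and *Cyp7b1* had 1196 and 559 counts and a log2FC of 1.69. The male-biased members *Gstp1* and *Gstp2* had a log2FC of −0.16 and −0.01. Of 2 other female-biased genes with at least 10 counts, *Cyp2c69* was lower, with 22 and 85 counts, named after its values were seen.

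**Figure D4:**
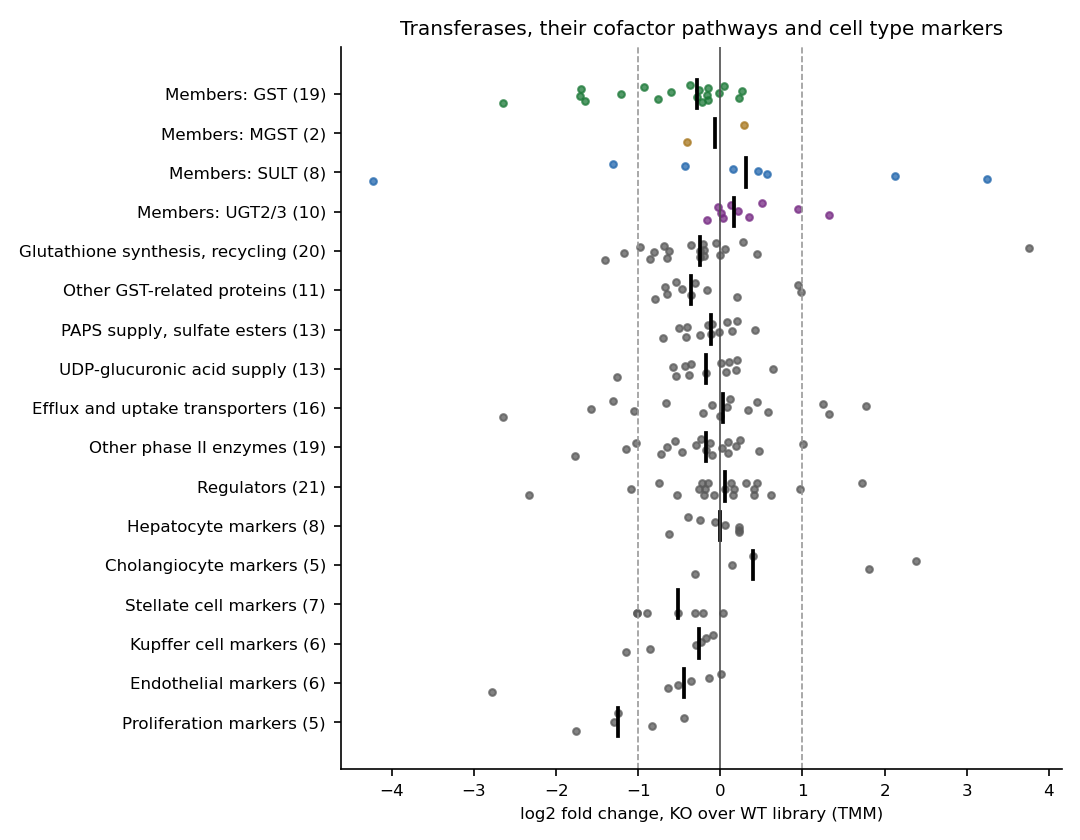
Log2FC (KO over WT library, TMM) of each member by class and of each gene in the other lists, with the number of genes in parentheses. Black bars are medians and dashed lines mark 2-fold. The hepatocyte markers lie around 0 and the proliferation markers around a median of −1.25, and the lowest GST genes lie beyond most genes of glutathione synthesis and recycling.

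The cell type markers were read against the same shares of all genes, 9.46% higher and 9.94% lower. The 8 hepatocyte markers all lay within 2-fold, with a median log2FC of −0.01 and a range of −0.63 to 0.23, and each had at least 3168 counts in either library, as a liver sample should. All 5 proliferation markers had a log2FC below 0 and 3 were lower, with summed counts of 1387 (KO) and 3477 (WT) and a median of −1.25. Among them *Cdk1* had 106 and 540 counts and a log2FC of −1.75, and *Top2a* had 104 and 374 counts and a log2FC of −1.25. Of 7 stellate cell markers 2 were lower, *Col1a1* with 102 and 312 counts and, named after its values were seen, *Acta2* with 25 and 77. Of 6 Kupffer cell and 6 endothelial markers 1 each was lower, *Adgre1* with 12 and 41 and *Lyve1* with 4 and 45 counts, also named afterwards. The median log2FC was −0.52 for stellate, −0.26 for Kupffer and −0.44 for endothelial cell markers. The summed marker counts were 906 and 2003 for stellate cells, 976 and 1816 for Kupffer cells and 698 and 1298 for endothelial cells. Of 5 cholangiocyte markers 2 were higher, *Krt19* with 26 and 7 and *Krt7* with 15 and 6 counts, again named afterwards. The other 3 lay within 2-fold. *Sox9* had 69 and 129 counts and a log2FC of −0.31, and *Epcam* had 11 and 15 counts. *Spp1*, with 1638 and 1875 counts, held most of the list sums of 1761 and 2032. The median of the list was 0.40 and turned to −0.20 with total counts. *Cftr*, with 2 KO and 0 WT counts, was the 1 marker at 0 in a library. The part of these markers, and of the larger mitochondrial share of the KO library, in the levels of the transferases was not tested.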

How the data were processed

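For 1 liver library of each genotype, the authors deposited unnormalized read counts of each gene and the FPKM made from them. The deposited FPKM were scaled by total count, since count over FPKM was 1.006 to 1.007 times as high in the KO library for all genes compared. The submitters' notes name HISAT2 2.0.4, StringTie and edgeR, without their roles, and the human build hg38, although the listed genes are mouse. All 55 members are in GENCODE M21 (GRCm38), 42 with the same coordinates.

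Counts were scaled with edgeR 4.0.16 (TMM factors of 0.812 for the KO and 1.23 for the WT library) in R 4.3.3, with a prior count of 0.5. Genes under 10 counts in the 2 libraries together were left out. A call was a 2-fold difference, with no test, since neither genotype had a second library. Alternatives were other scalings (DESeq2 1.42.0 among them), FPKM with a pseudocount of 0.1, other minimums, an exact binomial test, edgeR's exact test with an assumed variation, and leaving out members that share over 10% of their 51-base words with another gene. At this depth, 33 members had at least 100 counts in the higher library, and these were named with their values. Genes of the other lists were named when past 2-fold with at least 100 counts in the higher library, and 12 cofactor and regulator genes whatever their values. The members, lists and rules were chosen with earlier results of these data known. Steps were tested on simulated data. Python 3.11.15 with pandas 2.3.3 and scipy 1.17.1 was used for intervals and sequences. The values of 1 gene of the other phase II enzymes are not reported here.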

Additional observations from a re-analysis of the deposited data

How the results depend on the processing

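No paired analysis was possible because only 1 library was made per genotype, and for the same reason no replicate could be left out and the spread between mice is unknown. The 3 higher members remained 3 under upper-quartile scaling, DESeq2 scaling, a larger prior count and other count minimums, and were 2, without *Ugt2b38*, with total counts, with FPKM, without members that share sequence and at an assumed variation of 0.2. The 7 lower members became 12 with total counts and 11 with the authors' FPKM. Leaving out the 10 tested members that share sequence left 4 lower, among fewer members compared. At an assumed biological coefficient of variation of 0.4, 1 lower and 1 higher member were left. The summed GST log2FC of −0.45 became −1.06 with total counts, −0.54 with the mitochondrial genes left out of the total and −1.07 with FPKM. The summed SULT log2FC of 0.12 became −0.48, 0.036 and −0.56, and the summed UGT2/3 log2FC of 0.18 became −0.42, 0.091 and −0.37. Of 33 members with at least 100 counts in the higher library, 10 changed sign with total counts. Among all genes, the 1283 higher and 1348 lower calls became 624 and 3605 with total counts, 405 and 2934 with FPKM, 2289 and 2752 with a minimum of 1 count, 642 and 766 with a minimum of 50 counts, and 488 and 444, or 59 and 58, at an assumed variation of 0.2 or 0.4. Differences in genes with few counts, such as *Sult1e1* and *Ugt2b38*, are limited by depth.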
